A study of Mus musculus with 11 samples.

Results

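The genes described here belong to the prostanoid and leukotriene pathways of mouse alveolar macrophages, which live in the air spaces of the lung and clear particles and surfactant. They were chosen by symbol from a list of 10, each represented by its transcript cluster (the probe set that summarises the probes of a gene). Of the 10 listed genes 9 had a named transcript cluster and all 9 were tested, among 12144 genes tested and 19505 genes with a symbol in all. Ptgs1, which encodes cyclooxygenase-1, was not analysed here because no cluster carries its name in the annotation used. RNA of cells from lung lavage, purified by their adherence alone, was measured on 11 Affymetrix arrays, with 1 array per sample. The mice were C57BL/6J females, purchased when 6 weeks old, and all of them received 5 injections over 10 days. Control mice (n = 4) received PBS and were lavaged on day 10, acute mice (n = 3) received CpG 1826, an oligonucleotide ligand of Toll-like receptor Tlr9, and were lavaged on day 10, and resolution mice (n = 4) received CpG 1826 and were lavaged on day 30. The labels call the CpG course a model of macrophage activation syndrome (MAS), a hyperinflammatory state, and name the samples biological replicates without saying whether a sample is 1 mouse or a pool. Since no PBS group was lavaged on day 30, the earlier CpG course and the later day cannot be told apart in the resolution group.

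Prostanoids and leukotrienes are lipid mediators made from arachidonic acid, which phospholipases free from membranes. Cyclooxygenases turn it into prostaglandin H2, which terminal synthases convert to prostaglandin E2, prostacyclin, thromboxane and others, and these act on receptors coupled to G proteins. In the other branch 5-lipoxygenase, with its activating protein, makes leukotriene A4, which a hydrolase turns into leukotriene B4 and a synthase into the cysteinyl leukotriene C4. Alveolar macrophages are known as a source of both classes in the lung, and prostaglandin E2 and prostacyclin are known to restrain macrophage activation through cyclic AMP.

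The arrays were alike in signal, with a median intensity between 51.4 and 57.0 and their backgrounds spanned 6.12 to 6.24 in log2 units. A level below means log2(intensity + 1), background is the 90th percentile of 23 probe sets that match no mouse sequence, and a difference is between group means of levels. All 12 measured alveolar macrophage markers were above background in every group, with a mean level of 14.90 ± 0.02 (SD, n = 4) in control, 14.85 ± 0.05 (SD, n = 3) in acute and 14.98 ± 0.03 (SD, n = 4) in resolution arrays. That mean hides changes in both directions. At an adjusted p under 0.05, 3 of the 12 were higher in resolution than in control (Cidec, Pparg and Krt79) and 2 lower (Fabp4 and Atp6v0d2). Markers of other cells moved with the groups or with single arrays. The summed intensity of 12 airway and alveolar epithelium markers lay between 25707 and 44852 in acute, 12019 and 21756 in control and 12810 and 14839 in resolution arrays, and 2 of the 12, Sftpb and Krt18, were never above background. That sum hides a fall on day 30. Of 10 tested, 4 were lower in resolution than in control (Scgb1a1, Scgb3a2, Bpifa1 and Cyp2f2, by -1.88 to -1.17) and 0 higher. Against acute 7 of the 10 were lower and 0 higher. Cdh1, the brightest of the 12 in resolution arrays, was not among those that fell. The sum over 7 interstitial macrophage markers was 477 to 613 in control, 920 to 1482 in acute and 713 to 1284 in resolution arrays, with C1qa higher in both CpG groups (adjusted p = 0.0201 and 0.00203) and Cx3cr1, Folr2 and Lyve1 never above background. The list did not move as 1. Of 5 tested, 1 was higher in resolution than in control, C1qa, and 1 lower, Tmem119 (difference -0.55, adjusted p = 0.0275). Over 6 eosinophil markers the sum was 4529 to 13732 in control, 4665 to 5186 in acute and 2246 to 3383 in resolution arrays, with Ear6 lower in resolution than in control (adjusted p = 0.00759). Over 9 mast cell and basophil markers it was 335 to 398 in control, 476 to 858 in acute and 399 to 1096 in resolution arrays. Kit was the brightest of the 9 in every group, with mean levels of 7.02 in control, 8.54 in acute and 8.22 in resolution arrays. Of 5 tested, 0 passed in any comparison. The sums over monocyte, endothelium and T cell markers were at most 573 on any array. That was the endothelium sum of control replicate 4, against 283 to 409 on the other 10 arrays. Against control on day 30, Ccr2 of the monocyte list was higher (adjusted p = 0.0229). Vwf of the endothelium list (0.0271) and Cd3d of the T cell list (0.00721) were lower, Cd3d at levels not above background in either group. The alveolar macrophage sum itself was 602381 to 653771 in control, 566323 to 606630 in acute and 543730 to 563842 in resolution arrays. Control replicate 4 stood apart, with a summed intensity of 9696 over 11 neutrophil markers against 2775 to 6459 on the other 10 arrays, and 13732 over 6 eosinophil markers against 2246 to 5900. The eosinophil sum rested mainly on Ear6, the brightest of the 6 on every array and at 13.71 on control replicate 4. Among neutrophil markers S100a8 was brightest on control replicate 4, at 12.16, and Mmp8 on the other 10 arrays. Of 7 neutrophil markers tested, 2 were lower in resolution than in control and 0 higher. These were Cxcr2 (difference -1.08, adjusted p = 8.04e-05) and Ltf (adjusted p = 0.0138), and both were also lower than in acute. Ltf was above background on 1 of 4 control, 3 of 3 acute and 0 of 4 resolution arrays. The neutrophil marker Retnlg and the eosinophil markers Prg2 and Ccr3 were above background on control replicate 4 alone, at 7.11, 6.95 and 6.29. The neutrophil granule genes Ngp, Camp and Elane and the eosinophil genes Epx, Prg3 and Il5ra were not above background on any array, and 7 of 9 mast cell and basophil markers were not either. What part such cells had in the results below was not tested, and for some genes results are also given without control replicate 4. In RNA from a mixed lavage a lower level can mean fewer cells that express a gene or less RNA per cell, which cannot be told apart.

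By day 30 the receptor side of the prostanoid pathway had changed in both directions. Of the leukotriene enzyme genes only Alox5 passed against control, with a higher level, while Alox5ap, Ltc4s and Lta4h did not. The comparison of resolution with control addresses the state on day 30, after the CpG course had ended. Of the 9 genes tested, 2 fell, Ptgir and Ptges, and 2 rose, Ptger4 and Alox5. The call of Alox5 held in 9 of the 11 fits that left out a single array, and ended without control replicate 4. Over all genes tested, 18.6% passed the same threshold (adjusted p under 0.05), 9.6% higher and 9% lower. The median difference of the 9 was -0.18, beside 0.00 over all genes. That median is the difference of Ptgs2, which was not above background on any array, so it gives no direction for the 9. For the same 4 genes the resolution and control arrays did not overlap, which held for 22.7% of all genes tested.

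In acute versus control, which addresses the state on the day the injections ended, 0 of the 9 genes passed, where 0.239% of all genes did (0.189% higher and 0.0494% lower). All 9 differences were negative, between -1.04 and -0.00, with a median of -0.36, where 50.1% of all genes tested had a negative difference. Those of Ptgs2 and Alox5ap, at -0.00 and -0.01, turned positive under other settings, so their sign carries no direction. At an unadjusted p under 0.05 there were 3 of the 9 (Ptgir, Ptger4 and Lta4h), where 9.05% of all genes had such a p. No gene of the 9 had acute arrays that lay wholly outside the control arrays, a pattern found for 10.1% of all genes.

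In resolution versus acute, which compares both CpG groups across the days of lavage, 5 of the 9 passed, where 14.5% of all genes did (7.77% higher and 6.69% lower). Ptger4, Alox5 and Ltc4s rose, and Ptgir and Ptges fell. The median difference of the 9 was 0.21, beside -0.00 over all genes. The arrays did not overlap for 4 of the 9 (Ptgir, Ptger4, Alox5 and Ltc4s), as for 26.3% of all genes. The comparisons share arrays, so their results are not independent of one another. Because limma was fitted over all 11 arrays, the spread of each gene is also shared between them.

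**Figure D1:**
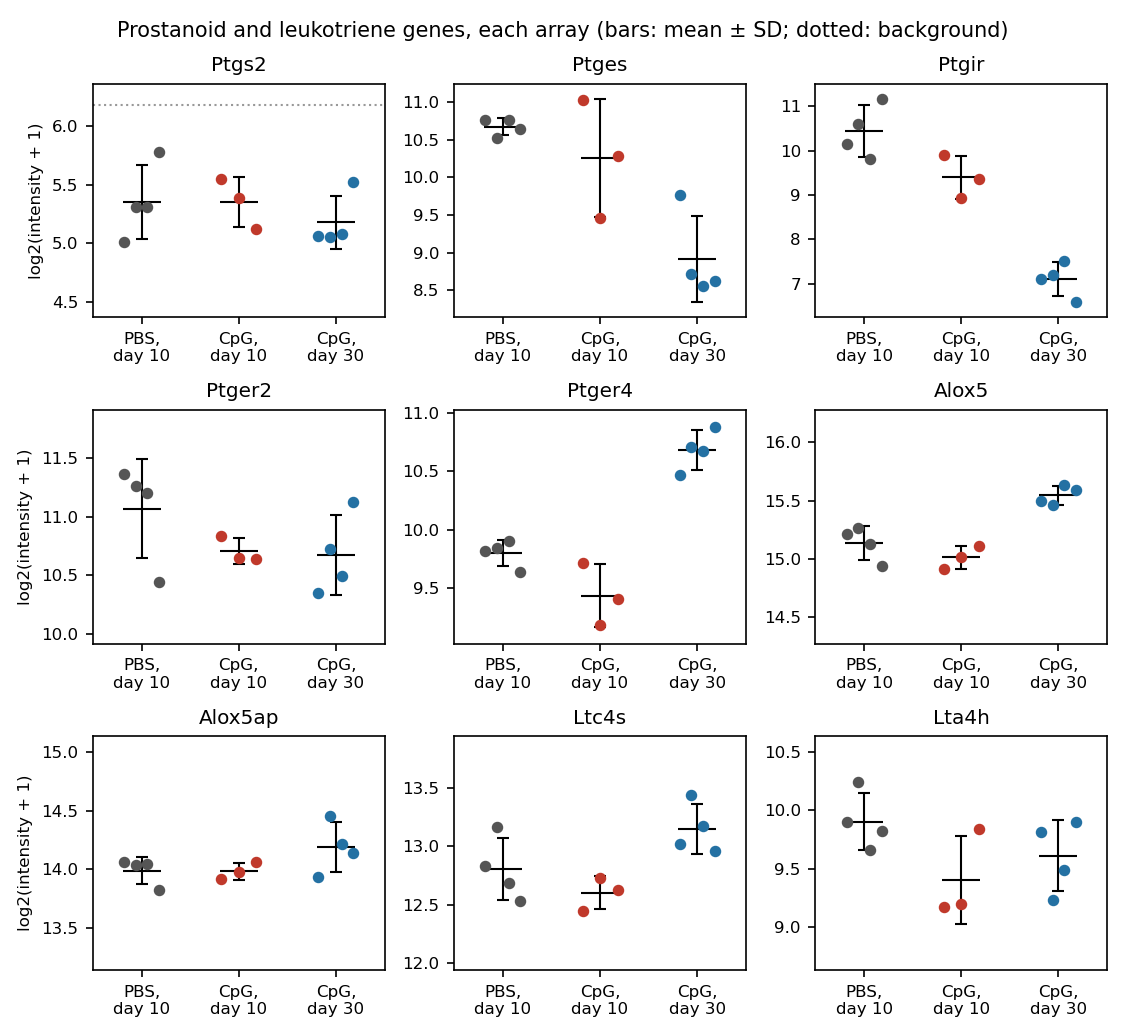
Level (log2 of intensity + 1, vertical axes with different ranges) of 9 prostanoid and leukotriene genes on each array, by group (PBS day 10, n = 4; CpG day 10, n = 3; CpG day 30, n = 4), with horizontal bars for means, error bars for SD and a dotted line for background where it falls within the axis. The 4 day 30 arrays of Ptgir sit between 6.60 and 7.51, below the other 7 arrays, and those of Ptger4 between 10.47 and 10.88, above the other 7.

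The 4 genes that differed between resolution and control lie on 4 chromosomes, and the 250 bases upstream of their RefSeq start sites (GRCm38.p6) are shown so that the members that fell and those that rose can be read side by side. The stretches are chr7:16906240-16906489 on the plus strand for Ptgir, chr2:30903298-30903547 on the minus strand for Ptges, chr15:5244188-5244437 on the minus strand for Ptger4 and chr6:116461179-116461428 on the minus strand for Alox5, each written 5′ to 3′ in the direction of transcription. Capitals mark a match to 1 of 5 motifs that were searched on both strands.
Ptgir: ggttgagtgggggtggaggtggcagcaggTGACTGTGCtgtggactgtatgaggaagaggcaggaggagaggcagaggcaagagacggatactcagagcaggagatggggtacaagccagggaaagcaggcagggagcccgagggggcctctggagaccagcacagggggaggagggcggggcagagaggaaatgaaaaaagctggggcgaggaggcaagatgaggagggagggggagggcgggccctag
Ptges: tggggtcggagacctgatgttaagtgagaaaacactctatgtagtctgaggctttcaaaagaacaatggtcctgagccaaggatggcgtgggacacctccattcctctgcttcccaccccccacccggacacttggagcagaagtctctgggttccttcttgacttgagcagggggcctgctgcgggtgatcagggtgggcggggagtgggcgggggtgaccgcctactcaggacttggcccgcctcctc
Ptger4: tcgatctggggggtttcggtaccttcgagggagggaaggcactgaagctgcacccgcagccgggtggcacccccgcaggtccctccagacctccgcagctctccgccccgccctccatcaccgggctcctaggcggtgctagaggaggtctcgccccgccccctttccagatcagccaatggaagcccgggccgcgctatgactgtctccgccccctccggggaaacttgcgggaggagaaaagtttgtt
Alox5: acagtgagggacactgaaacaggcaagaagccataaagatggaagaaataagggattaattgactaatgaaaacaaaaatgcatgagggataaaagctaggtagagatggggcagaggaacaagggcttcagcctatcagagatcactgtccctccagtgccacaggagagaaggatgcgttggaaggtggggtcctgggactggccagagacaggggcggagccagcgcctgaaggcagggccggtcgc

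The motifs were the cyclic AMP response element (CRE, TGACGTCA), its core (TGACG, which any full CRE also holds), the antioxidant response element (ARE, TGACNNNGC), the AP-1 site (TGANTCA) and the E-box (CACGTG). RefSeq windows of 300 bases, with 250 before and 50 after the start, were found for 9 of the 10 listed genes. Of these 9, 7 held no match. The match in Ptgir was an ARE, a motif that 12.4% of the 32851 RefSeq windows hold. Ptgs2 held a CRE core and an E-box downstream of its start, motifs that 20.8% and 7.15% of windows hold. Full CRE and AP-1 letters stood in 0 of the 9 windows, against 1.79% and 7.81% of all windows. A match describes letters in this window only.

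Cyclooxygenase-2 and the terminal prostaglandin E synthase, the enzymes that make prostaglandin E2 on demand, differed in whether they were measured at all. Ptgs2, which encodes cyclooxygenase-2, stood at 5.01, 5.31, 5.31 and 5.78 in control, 5.54, 5.39 and 5.12 in acute and 5.06, 5.06, 5.08 and 5.52 in resolution arrays. It was not above background on any of the 11 arrays, so its level has only an upper bound and no fold is given. Adjusted p was 0.998 for acute versus control, 0.538 for resolution versus control and 0.598 for resolution versus acute.

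Ptges, which encodes microsomal prostaglandin E synthase-1, was above background on every array. Its levels were 10.76, 10.53, 10.76 and 10.65 in control, 11.03, 9.46 and 10.28 in acute and 9.76, 8.72, 8.55 and 8.63 in resolution arrays. Every resolution array lay below every control array, with replicate 1 the nearest, while the acute arrays spread over both sides of control and reached down into the resolution range. Against control Ptges fell 3.39-fold on day 30, from 10.68 ± 0.11 to 8.92 ± 0.57 (SD, n = 4 each), a difference of -1.76 ± 0.31 (SE, adjusted p = 0.00182). Against acute, at 10.26 ± 0.78 (SD, n = 3), it fell 2.54-fold (difference -1.34 ± 0.34 SE, adjusted p = 0.0189), a call that ended without acute replicate 1 (-0.96, adjusted p = 0.0891), acute replicate 3 (0.0564) or resolution replicate 3 (0.0531). Acute and control differed by -0.42 with a 95% interval of -1.15 to 0.31, too wide to place the acute group.

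Ptgir, which encodes the prostacyclin receptor IP and signals through cyclic AMP, had the largest difference of the 9 genes in all 3 comparisons. Its levels were 10.16, 10.61, 9.81 and 11.16 in control, 9.89, 8.93 and 9.36 in acute and 7.10, 7.20, 7.51 and 6.60 in resolution arrays. All 4 resolution arrays were above background but lay below the other 7 arrays, and acute overlapped control only through acute replicate 1 and control replicate 3. The mean fell 10.1-fold from 10.43 ± 0.58 in control to 7.10 ± 0.38 in resolution arrays (SD, n = 4 each), a difference of -3.33 ± 0.29 (SE, adjusted p = 1.11e-05). Without control replicate 4, which held the highest level, it was -3.09 ± 0.27 (SE, adjusted p = 1.9e-05). Against acute, at 9.39 ± 0.48 (SD, n = 3), Ptgir fell 4.89-fold (difference -2.29 ± 0.31 SE, adjusted p = 0.00045). Acute and control differed by -1.04 ± 0.31 (SE, adjusted p = 0.308), with a 95% interval of -1.72 to -0.36 before adjustment.

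The receptors for prostaglandin E2 that also raise cyclic AMP, EP2 and EP4, were measured on every array. Ptger4, which encodes EP4, stood at 9.81, 9.84, 9.90 and 9.64 in control, 9.72, 9.19 and 9.40 in acute and 10.47, 10.71, 10.67 and 10.88 in resolution arrays. The 4 resolution arrays were above all others, and acute replicate 1 lay within the control range. Ptger4 rose 1.84-fold from 9.80 ± 0.11 in control to 10.68 ± 0.17 (SD, n = 4 each) in resolution arrays, a difference of 0.88 ± 0.14 (SE, adjusted p = 0.00071), and 0.83 ± 0.15 (SE, adjusted p = 0.00252) without control replicate 4. From the acute level of 9.44 ± 0.27 (SD, n = 3) it rose 2.37-fold (difference 1.25 ± 0.15 SE, adjusted p = 0.000159). The acute level differed from control by -0.36, with adjusted p = 0.480. The calls of Ptgir and Ptger4 in both comparisons with resolution held without each of the 11 arrays in turn.

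Ptger2, which encodes EP2, stood at 11.37, 11.26, 11.20 and 10.44 in control, 10.83, 10.65 and 10.64 in acute and 10.35, 10.72, 10.49 and 11.12 in resolution arrays. Control replicate 4 lay apart from the other controls and inside the range of the resolution arrays. Resolution minus control was -0.40 ± 0.21 (SE, adjusted p = 0.225), with a 95% interval of -0.85 to 0.06. Without control replicate 4 the difference became -0.61 ± 0.17 (SE) and passed (adjusted p = 0.0305), so this array decided the call, while without control replicates 3 and 4 together adjusted p was 0.0605. Resolution minus acute was -0.03 with a 95% interval of -0.53 to 0.46.

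**Figure D2:**
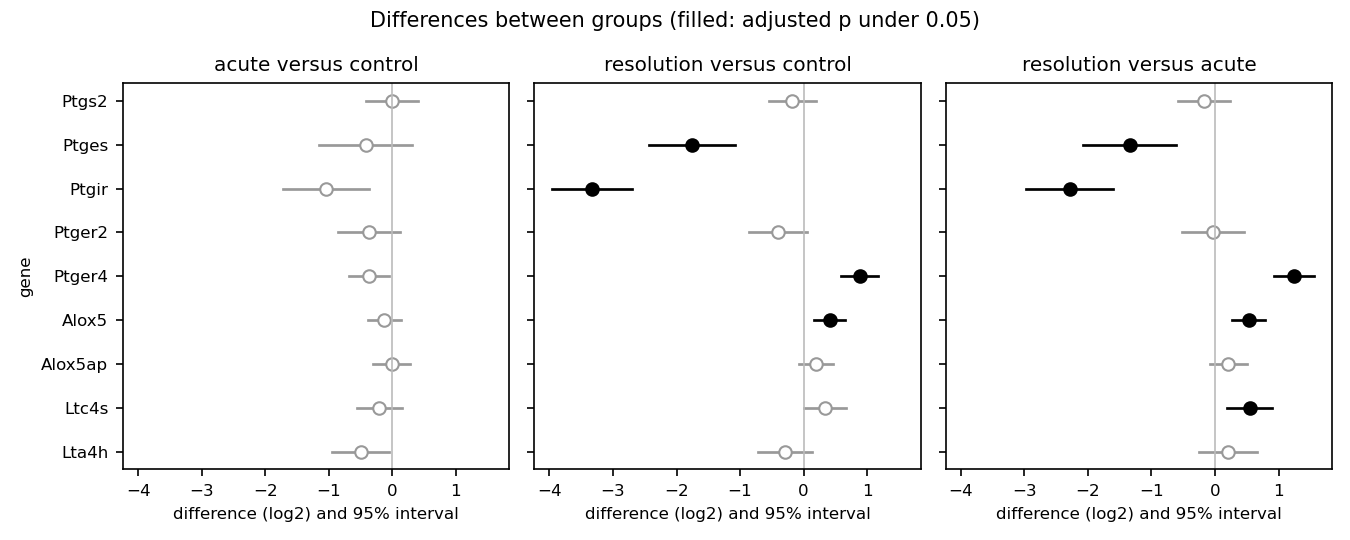
Differences between group means (log2 scale, horizontal axis) of 9 prostanoid and leukotriene genes in 3 comparisons, with 95% intervals before adjustment as lines and filled points for an adjusted p under 0.05. No point is filled for acute versus control, 4 are for resolution versus control and 5 for resolution versus acute, with Ptgir farthest from 0 at -3.33.

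Of the 4 leukotriene enzyme genes, 1 rose against control and 2 rose against acute, by 1.33-fold to 1.46-fold, and none fell. Alox5, which encodes 5-lipoxygenase, the first enzyme of the branch, had levels of 15.21, 15.27, 15.13 and 14.94 in control, 14.92, 15.02 and 15.11 in acute and 15.50, 15.46, 15.63 and 15.59 in resolution arrays. Every resolution array exceeded the other 7, by a small margin. The mean rose 1.33-fold from 15.14 ± 0.14 in control to 15.55 ± 0.08 (SD, n = 4 each), a difference of 0.41 ± 0.11 (SE, adjusted p = 0.0206). Against acute, at 15.02 ± 0.10 (SD, n = 3), it rose 1.44-fold (difference 0.53 ± 0.12 SE, adjusted p = 0.0102). Against control the call ended without control replicate 4 (0.34, adjusted p = 0.0570), which held the lowest control level, or resolution replicate 3 (0.38, adjusted p = 0.0596). Against acute it ended without acute replicate 1 (0.48, adjusted p = 0.0503).

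Alox5ap, which encodes the membrane protein that presents arachidonic acid to 5-lipoxygenase, stood at 14.06, 14.03, 14.04 and 13.82 in control, 13.91, 13.97 and 14.06 in acute and 13.94, 14.45, 14.21 and 14.14 in resolution arrays. The groups overlapped in all 3 comparisons. Acute minus control had a 95% interval of -0.30 to 0.28, resolution minus control one of -0.07 to 0.47 and resolution minus acute one of -0.08 to 0.50.

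Ltc4s, which encodes leukotriene C4 synthase and belongs to the same protein family as Alox5ap, had levels of 12.83, 13.16, 12.69 and 12.54 in control, 12.45, 12.73 and 12.63 in acute and 13.02, 13.44, 13.17 and 12.96 in resolution arrays. All resolution arrays were above all acute arrays, while control replicate 2 lay inside the resolution range. Ltc4s rose 1.46-fold from acute (12.60 ± 0.14, SD, n = 3) to resolution (13.15 ± 0.21, SD, n = 4), a difference of 0.54 ± 0.17 (SE, adjusted p = 0.0448). This call stood in 3 of 11 fits that left out 1 array. It ended without control replicates 1 (adjusted p = 0.0604) or 3 (0.0544), without acute replicates 1 (0.163), 2 (0.0684) or 3 (0.0979) and without resolution replicates 1 (0.0580), 2 (0.0912) or 3 (0.0904). Resolution minus control was 0.34 ± 0.15 (SE, adjusted p = 0.146).

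Lta4h, which encodes the hydrolase that makes leukotriene B4, stood at 9.90, 10.24, 9.66 and 9.82 in control, 9.18, 9.20 and 9.84 in acute and 9.82, 9.24, 9.49 and 9.90 in resolution arrays. The groups overlapped in all 3 comparisons, with acute replicates 1 and 2 the lowest arrays. Acute minus control was -0.50 ± 0.21 (SE, adjusted p = 0.499), resolution minus control -0.29 ± 0.19 (SE, adjusted p = 0.342) and resolution minus acute 0.21 ± 0.21 (SE, adjusted p = 0.574). The synthase and the hydrolase compete for the same leukotriene A4, and neither passed against control.

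The rest of the pathway was described by 8 lists with 68 genes, of which 62 had a named cluster and 46 were tested. In resolution versus control 5 of the 46 rose and 7 fell, and in resolution versus acute 5 rose and 3 fell. Their median differences were 0.08 and 0.04. In acute versus control 0 of the 46 passed, with a median difference of -0.04. The shares of all genes that passed are those given above for each comparison.

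Among the phospholipases 3 of 8 tested genes fell against control and 0 rose. Pla2g4a, the cytosolic phospholipase A2 that frees arachidonic acid, fell 1.41-fold to 11.51 ± 0.18 (SD, n = 4, adjusted p = 0.0183). That call ended without control replicate 2 (0.0533) or without control replicates 3 and 4 together (0.0745). Pla2g7, which inactivates platelet-activating factor, fell at least 1.54-fold and was not above background on any resolution array. Pla2g6, a calcium-independent phospholipase, fell at least 1.55-fold (adjusted p = 0.00836), a call that ended without control replicates 3 and 4 together (0.0530). Against acute 1 of the 8 rose, the lysosomal Pla2g15, by 0.61 ± 0.14 (SE, adjusted p = 0.0129), but not without acute replicate 2 (0.0617).

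Among the other prostanoid synthases 1 of 5 tested genes rose, Tbxas1, which makes thromboxane, and 0 fell. It stood at 13.81 ± 0.06 (SD, n = 4) in control, 13.64 ± 0.04 (SD, n = 3) in acute and 14.14 ± 0.07 (SD, n = 4) in resolution arrays. Its rise against control was 1.26-fold (adjusted p = 0.0275). That call ended without control replicates 2 (0.0626), 3 (0.0533), 4 (0.0645) or 3 and 4 together (0.138), or without resolution replicates 1 (0.0674) or 3 (0.0737). The call also ended with only the groups compared in the fit (0.0526) and with the replicate block (0.0560). The 1.41-fold rise of Tbxas1 against acute (adjusted p = 0.00615) held without each array. Of 6 markers of platelets, another cell that makes thromboxane, Ppbp, Gp5 and Treml1 were not above background on any array, while Pf4, Itga2b and Gp9 were above it on all 11 and passed in no comparison. The summed intensity of the 6 lay between 676 and 880 in control, 723 and 884 in acute and 753 and 888 in resolution arrays.

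Breakdown of prostanoids was represented by Ptgr1, a reductase that inactivates prostaglandins and leukotriene B4, which fell against control as 1 of 4 tested genes. Its levels were 10.44, 10.54, 9.74 and 11.07 in control, 9.39, 9.26 and 9.08 in acute and 9.48, 9.13, 8.96 and 8.81 in resolution arrays. The acute and resolution arrays overlapped each other and both lay below control. Resolution minus control was -1.35 ± 0.24 (SE, adjusted p = 0.00166), and acute minus control was -1.21 ± 0.25 (SE, adjusted p = 0.0941). Without control replicate 3, the lowest control, the acute difference passed (adjusted p = 0.0248), and so it did without control replicates 3 and 4 together (0.0314) or with an intensity trend in the moderation (0.0492).

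Of 6 other prostanoid receptors, Ptger3, Ptgdr, Ptgdr2 and Ptgfr were not above background on any array, and are named here after their values were seen. Ptger1, which encodes the EP1 receptor, was 1 of 2 tested and rose. Its levels were 9.07, 9.27, 9.37 and 9.48 in control, 9.03, 9.10 and 8.72 in acute and 9.63, 10.13, 9.91 and 10.18 in resolution arrays, so every resolution array exceeded the other 7. Ptger1 rose 1.59-fold against control (adjusted p = 0.0083) and 2.02-fold against acute (adjusted p = 0.00131). Tbxa2r, the thromboxane receptor, differed from control by -0.20 on day 30 (adjusted p = 0.391).

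Of 4 measured leukotriene receptors, 3 were not above background on any array (Ltb4r1, Cysltr2 and Oxgr1, named after their values were seen). The other, Cysltr1, is the main receptor for leukotriene D4. It stood at 5.85, 5.75, 6.23 and 5.67 in control, 6.13, 6.64 and 7.04 in acute and 6.90, 7.92, 7.90 and 7.64 in resolution arrays. It was above background on 1 of 4 control, 2 of 3 acute and 4 of 4 resolution arrays. Cysltr1 rose at least 2.69-fold against control, by 1.71 ± 0.24 (SE, adjusted p = 0.000379), a call that held without each array. Against acute it rose at least 1.98-fold (adjusted p = 0.0257), but not without acute replicates 1 (0.122) or 2 (0.0638) or resolution replicates 2 (0.0622), 3 (0.0687) or 4 (0.0538).

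Abcc1, the transporter that exports leukotriene C4 and glutathione conjugates, had the largest difference from control among the 46. Its levels were 11.15, 10.96, 10.50 and 10.26 in control, 10.36, 9.33 and 10.01 in acute and 8.23, 8.19, 8.35 and 8.46 in resolution arrays. The resolution arrays lay close together and below the other 7. Abcc1 fell 5.32-fold against control, with a difference of -2.41 ± 0.23 (SE, adjusted p = 1.93e-05), and 3.02-fold against acute (adjusted p = 0.00098). It was the 1 gene called among 6 tested for export, processing and breakdown of leukotrienes in each of these comparisons. The synthase Ltc4s and the exporter Abcc1 had differences of opposite sign on day 30, of which that of Abcc1 passed against control.

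Among the other lipoxygenases 0 of 3 tested genes passed against control and 1 rose against acute. Aloxe3, an epidermal-type lipoxygenase, stood at 9.23 ± 0.43 (SD, n = 4) in control, 8.43 ± 0.54 (SD, n = 3) in acute and 10.00 ± 0.37 (SD, n = 4) in resolution arrays. It rose 2.97-fold from acute to resolution (adjusted p = 0.00293), and its difference from control was 0.77 ± 0.26 (SE, adjusted p = 0.0616). This passed without acute replicates 1 (0.0493) or 2 (0.0396) or resolution replicate 2 (0.0395), with an intensity trend (0.0447) or with only the groups compared in the fit (0.0471).

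Cyclic AMP signalling, which carries the signal of Ptgir, Ptger2 and Ptger4, had 2 of 15 tested genes higher and 2 lower against control. Pde4b, a phosphodiesterase that breaks down cyclic AMP, stood at 13.33, 13.09, 13.50 and 12.87 in control, 13.57, 14.15 and 13.80 in acute and 12.24, 11.15, 11.81 and 12.54 in resolution arrays. All acute arrays were above all control arrays and all resolution arrays below them. Pde4b fell 2.40-fold against control (adjusted p = 0.00482) and 3.74-fold against acute (adjusted p = 0.000741), while acute minus control was 0.64 ± 0.28 (SE, adjusted p = 0.519). Creb1, a transcription factor activated by cyclic AMP, fell by 0.48 ± 0.13 (SE, adjusted p = 0.0226) against control and by 0.55 ± 0.14 (SE, adjusted p = 0.0210) against acute. The first call ended without control replicates 1 (0.0590), 3 (0.0670) or 3 and 4 together (0.0931), resolution replicates 1 (0.0521) or 3 (0.0665) or with the replicate block (0.0524). The second ended without acute replicates 2 (0.0765) or 3 (0.0565), resolution replicate 3 (0.0588) or with the block (0.0552).

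The genes that rose in this list were Prkar2a, a regulatory subunit of protein kinase A, by 0.50 ± 0.14 (SE, adjusted p = 0.0246), and the phosphodiesterase Pde7a. Pde7a rose at least 1.15-fold (difference 0.55 ± 0.14 SE, adjusted p = 0.0159), but not without control replicates 3 and 4 together (0.166). It was above background on 3 of 4 resolution arrays and on none of the control or acute arrays. The call of Prkar2a ended without control replicates 3 (0.0725), 4 (0.0643) or both together (0.236), resolution replicates 1 (0.0503) or 4 (0.0579) or with the replicate block (0.0566). The levels of Gnas, Adcy3 and Adcy7, the G protein and adenylyl cyclases that sit between the receptors and protein kinase A, were above background on every array, and these 3, named after their values were seen, passed in no comparison.

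**Figure D3:**
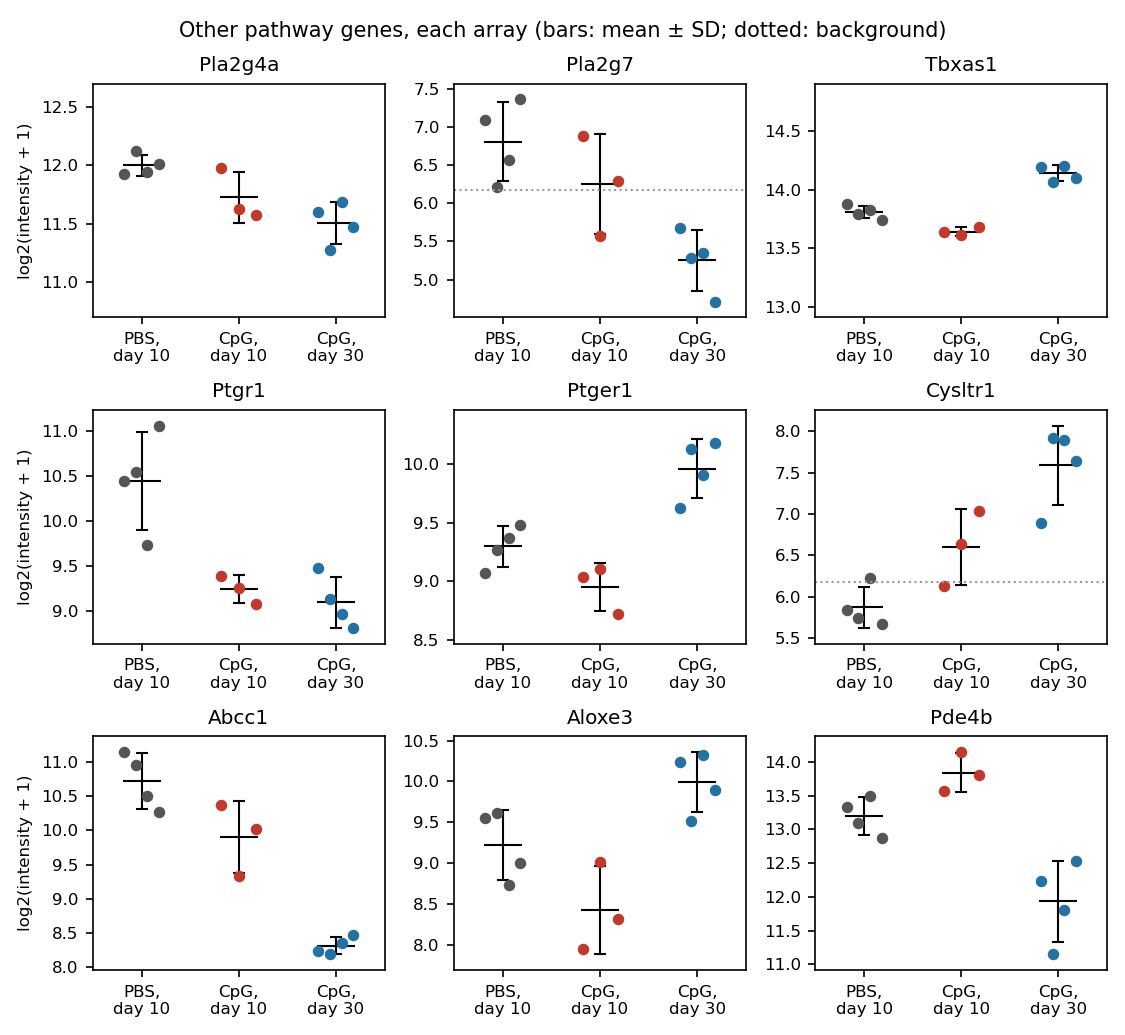
Level (log2 of intensity + 1, vertical axes with different ranges) of 9 further pathway genes on each array, by group (PBS day 10, n = 4; CpG day 10, n = 3; CpG day 30, n = 4), with horizontal bars for means, error bars for SD and a dotted line for background where it falls within the axis. On day 30 Abcc1 sits between 8.19 and 8.46, below the other 7 arrays, while all 4 Ptger1 arrays and all 4 Tbxas1 arrays lie above the other 7.

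Ptgir had the largest difference of the members, and the genes whose pattern over the 11 arrays was most like it were found by distance. The measure was the root mean square (RMS) of the gap between centred log2 levels, which was 1.52 for the median gene. The closest were Cd200, a surface ligand that dampens myeloid cells (RMS 0.32), Ch25h, which makes 25-hydroxycholesterol (0.41), Met, the receptor of hepatocyte growth factor (0.41), Cxcr1, a chemokine receptor (0.46), and Cyfip2, an actin regulator (0.48). In that order, resolution minus control was -2.68, -2.73, -3.61, -3.48 and -2.78 on the log2 scale, and acute minus control was -0.58, -0.62, -0.75, -0.83 and -0.87. For Ptgir these differences were -3.33 and -1.04. Likeness of this kind describes these 11 arrays and follows mainly from the gap between the resolution arrays and the others. Control replicate 4, the array richest in neutrophil and eosinophil markers, held the highest level of all 6 genes, and the part of those cells was not tested.

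**Figure D4:**
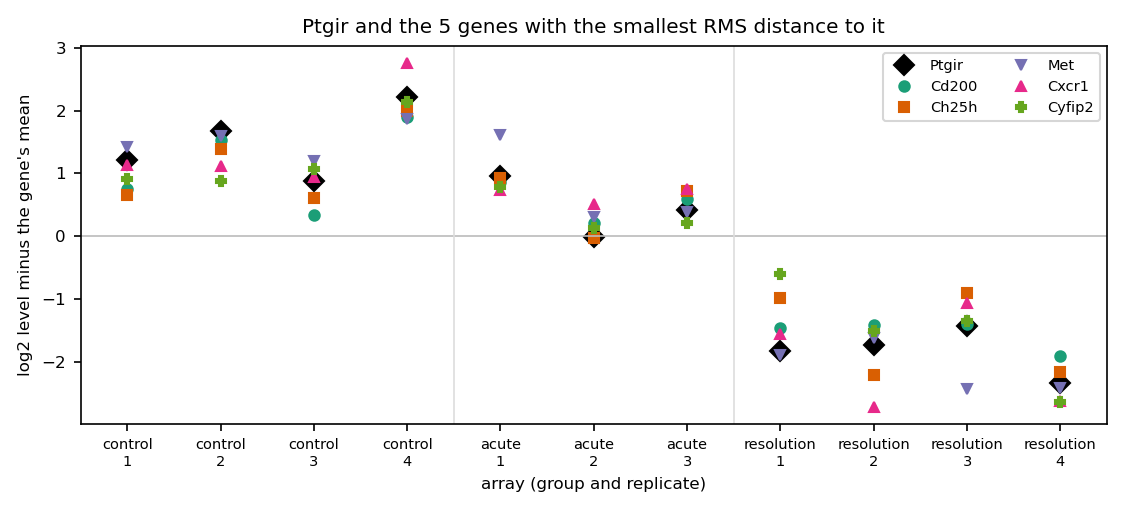
Log2 level minus the gene's own mean over 11 arrays (vertical axis) for Ptgir and the 5 genes at the smallest root mean square distance from it, on each array (horizontal axis, group and replicate). All 6 genes are above their mean on the 4 control arrays and below it on the 4 resolution arrays.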

How the data were processed

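RNA of 11 samples (4 control, 3 acute and 4 resolution) was measured on Affymetrix arrays. The authors used Affymetrix Expression Console, per the submitters' processing notes, with version and summary method not given in the sources used here. They deposited linear intensities, and log2(intensity + 1) was taken with no further scaling. The platform annotation gives 1 symbol for 19572 of 28846 probe sets, several for 0 and none for 9274, and all 19572 were found in the RefSeq table (GRCm38.p6), with 0 symbols updated. Of 19505 symbols 55 had several clusters, and the one with the highest mean was used. The number of arrays limits the precision.

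A gene was tested where at least 3 of 11 arrays exceeded that array's 40th percentile over all probe sets. Group means were fitted with limma 3.58.1 (R 4.3.3) on the 11 arrays together, with no block term, giving 8 residual and 4.48 prior degrees of freedom. The 3 contrasts were two-sided, with Benjamini-Hochberg adjustment over 12144 genes and a threshold of 0.05. The procedure was also run on simulated data, and no result given here rests on that run. SE is the moderated standard error and SD the standard deviation over arrays. Intervals of 95% are for single differences, without adjustment. A fold is written "at least" if the lower group mean lay within 1 SD of the mean background or under it, and is then taken to that background or to the lower mean, whichever was higher. P-values set a group difference against the spread between samples within groups, pooled over the 3 groups and moderated across genes. That spread may be partly technical.

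Text names all members, up to 4 called genes of each pathway list or the gene with the smallest p, and the 5 genes most like the member with the largest difference. Members, lists and alternatives were chosen with earlier results of these data known. The alternatives were another pseudocount, filter, scaling, moderation, treatment of several clusters and set of arrays, and a replicate block. Same-numbered samples of different groups did not deviate together, with correlations across genes between -0.12 and 0.09 over 10 pairs, and genes are not independent replicates.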

Additional observations from a re-analysis of the deposited data

Results flagged for a closer look

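Within the groups of 4 arrays, 18 sets of member values were screened for an array that lay far from the rest, and chance marks about 1 in 20 such sets. The screen used the gap to the nearest array as a share of the range, against Dixon's 95% critical value. Ptges on resolution replicate 1 stood at 9.76, the next array at 8.72, a gap of 0.862 of the range. Without that array resolution minus control for Ptges was -2.04. Alox5ap on control replicate 4 stood at 13.82, the next array at 14.03, a gap of 0.909 of the range.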

How the results depend on the processing

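Among the 9 members 0 passed in acute versus control under every alternative run. In resolution versus control 3 to 4 passed, and in resolution versus acute 2 to 5 against 5 as reported. The lowest counts in resolution versus acute came without acute replicate 1 (2), acute replicate 3 (3) or resolution replicate 3 (3). Without a filter on dim genes it was 4, since the call of Ltc4s ended (adjusted p = 0.0604). Among the 46 other pathway genes leaving out 1 array gave 0 to 1 calls in acute versus control, 9 to 15 in resolution versus control (12 as reported) and 6 to 11 in resolution versus acute (8 as reported). The 1 acute call was Ptgr1, which also passed with an intensity trend (1 call) and without control replicates 3 and 4 together (1 call). Without those 2 arrays, an alternative that keeps control replicates 1 and 2, 6 genes passed in resolution versus control, and Alox5 did not pass (0.30, adjusted p = 0.163).

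Signs turned for small differences that passed under no setting. For Ptgs2 in acute versus control the difference was 0.13 with the replicate block, 0.19 without control replicates 3 and 4 and between -0.12 and 0.14 when 1 array was left out, positive without control replicate 4 or acute replicate 3, and in resolution versus control it was 0.017 without those 2. For Alox5ap in acute versus control it was 0.013 with quantile normalization, and between -0.064 and 0.027 when 1 array was left out, positive without control replicates 1, 2 or 3 or acute replicate 1. For Ptger2 in resolution versus acute it was 0.011 with a common median, and between -0.18 and 0.074 when 1 array was left out, positive without acute replicate 1 or resolution replicates 1 or 3. The cause was not tested.

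The replicate block left the members' calls at 0, 4 and 5, with Ptgir at -3.33 (adjusted p = 0.000198) in resolution versus control, but the numbers do not pair the samples. Among other pathway genes it left 9 calls in resolution versus control. Over all genes, acute versus control had 29 calls as reported, 51 with an intensity trend, 16 with only the groups compared and 6 to 29 when 1 array was left out. Resolution versus acute had 1755 as reported and 1069 without acute replicate 1. Resolution versus control had 2259 as reported and 1494 without control replicates 3 and 4. Ptgs2 and other genes at background have no measurable difference here.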
